A study of Homo sapiens with 12 samples.

Results

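The expression of 10 genes that receive, carry, make or remove retinoic acid was measured in 12 RNA sequencing libraries of differentiating SH-SY5Y cells. The genes were listed by name, without a threshold on their values, and they make up 10 of the 55765 gene symbols in the count data. Since RDH10, ALDH1A2 and AKR1C3 had already been singled out by the study from the same libraries, their differences below are not independent evidence. PDK1, which the study named with them, is not a member and is given with the target genes below. The 10 genes are the nuclear receptors RARA, RARB and RARG, the cytosolic binding protein CRABP2, the enzymes RDH10, ALDH1A2, DHRS3 and AKR1C3, and the retinoic acid hydroxylases CYP26A1 and CYP26B1. Each had reads in all 12 libraries, and each passed the filter on low counts in every comparison.

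SH-SY5Y is a human neuroblastoma line cloned from the SK-N-SH line, so all cultures derive from 1 clonal line. All cultures were differentiated with all-trans retinoic acid (ATRA) for 7 days, and no culture without ATRA was analysed here. In the co-treatment experiment, 3 cultures received H2O2 together with ATRA throughout and 3 control cultures received ATRA without H2O2. In the pre-treatment experiment, 3 cultures received H2O2 in the 72 h before ATRA was started and 3 control cultures did not. The H2O2 dose was 10 mM by the series description and 10 μM by the methods text. The libraries below are called co control, co H2O2, pre control and pre H2O2, with replicates 1 to 3. Nothing states that replicates were grown on separate days, so p-values measure only the spread between these cultures.

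Retinoic acid enters cells by diffusion and is handed to the nucleus by CRABP2. There it binds RAR and RXR heterodimers on response elements in DNA, which typically are direct repeats of a short motif. Several products of the pathway are themselves targets of the receptors. RARB, CRABP2, DHRS3, CYP26A1 and CYP26B1 are textbook examples of genes that retinoic acid induces, and the CYP26 enzymes and DHRS3 lower the retinoic acid supply. RDH10 and ALDH1A2 act in the other direction, as the successive oxidation steps from retinol to retinaldehyde and on to retinoic acid. In neuroblastoma cells the pathway is best known for driving exit from the cell cycle and neurite outgrowth.

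Between 27576276 and 98287391 reads were counted on genes per library. Counts were scaled to the library total with TMM factors and are given as CPM. Pre control replicates 1 and 2 carried 0.800 and 0.830 reads outside annotated genes for each read on a gene, against 0.200 in pre control replicate 3 and 0.263 to 0.462 in the other 9 libraries. Small structured RNA loci took 1.59% and 2.88% of reads in those controls, 17.6% in pre control replicate 3 and 5.04 to 15.1% elsewhere. Because pre control replicate 3 stood apart from the other controls of its experiment, the pre-treatment comparison is given with all 6 libraries and with 5 libraries, without that control. That choice rests on these same data, and all 3 pre controls lay outside the range of the other 9 libraries in both measures. Of 7 noradrenergic neuroblastoma markers, 6 passed the filter on low counts in both experiments and TH was below 1 CPM in all 12 libraries. The 4 markers of Schwann or glial cells summed to 4.54 to 7.40 CPM. Of the 7 mesenchymal markers, PRRX1 and YAP1 were below 1 CPM. The means of the others over the 12 libraries were 162 CPM for TWIST1, 133 for FN1, 22.2 for SNAI2, 12.2 for VIM and 1.70 for CD44.

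The promoters of RARB and CYP26A1 hold the element through which RAR heterodimers are known to act, and their sequences are shown because both genes serve as readouts of retinoic acid. RefSeq promoter windows on GRCh38.p14, from 250 bases before to 50 bases after each start, were available for 9 of the 10 genes and not for RDH10. They were searched on both strands for direct repeats of the core motif AGGTCA, or of its variants with the letters AGTTCA, with the letters GGGTCA or with the letters GGTTCA, spaced by 1, 2 or 5 bases (DR1, DR2 and DR5). The 120 bases directly before the start are given 5′ to 3′ on the gene's strand, with the DR5 match in capitals, at chr3:25428143-25428262 (plus strand) for RARB and at chr10:93073773-93073892 (plus strand) for CYP26A1.
RARB: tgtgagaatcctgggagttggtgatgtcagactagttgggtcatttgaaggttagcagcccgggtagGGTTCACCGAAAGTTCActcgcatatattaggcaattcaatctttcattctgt
CYP26A1: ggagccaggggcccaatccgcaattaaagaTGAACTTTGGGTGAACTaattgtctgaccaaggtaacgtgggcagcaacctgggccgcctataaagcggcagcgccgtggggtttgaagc
RARB had 4 windows and CYP26A1 had 2, and a match was found only in the window shown for each. The RARB match lies between positions -53 and -37 from the start used in that window. The CYP26A1 match lies between positions -90 and -74 on the opposite strand, where it reads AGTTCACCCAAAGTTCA. A DR5 match was present in 31 of all 35116 windows (0.0883%), a DR1 match in 0.131% and a DR2 match in 0.0399%. No match to these letters was found in the windows of the other 7 genes, which says nothing of elements outside the windows or with other letters.

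The levels of the 10 genes spanned several orders. Between genes they were compared as CPM per kilobase of exon (RPKM) over the 12 libraries. CRABP2 was highest with 1495 ± 563 RPKM (SD, n = 12), followed by CYP26A1 with 379 ± 135, CYP26B1 with 168 ± 140 and DHRS3 with 131 ± 39.4. The receptors lay an order lower, at 17.1 ± 4.10 for RARB, 9.67 ± 3.42 for RARA and 8.04 ± 1.63 for RARG. The enzymes of synthesis and the reductase AKR1C3 were lowest, at 2.40 RPKM for RDH10, 1.56 for AKR1C3 and 0.374 for ALDH1A2. The ranges over libraries did not overlap between DHRS3 and RARB or between RARG and RDH10, and every other pair of neighbours in this order overlapped. CRABP2 came first, CYP26A1 second and ALDH1A2 last in each of the 4 groups. With the length of the canonical transcript in place of all exons, DHRS3 came above CYP26B1, RARG above RARA and AKR1C3 above RDH10 over the 12 libraries.

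**Figure D1:**
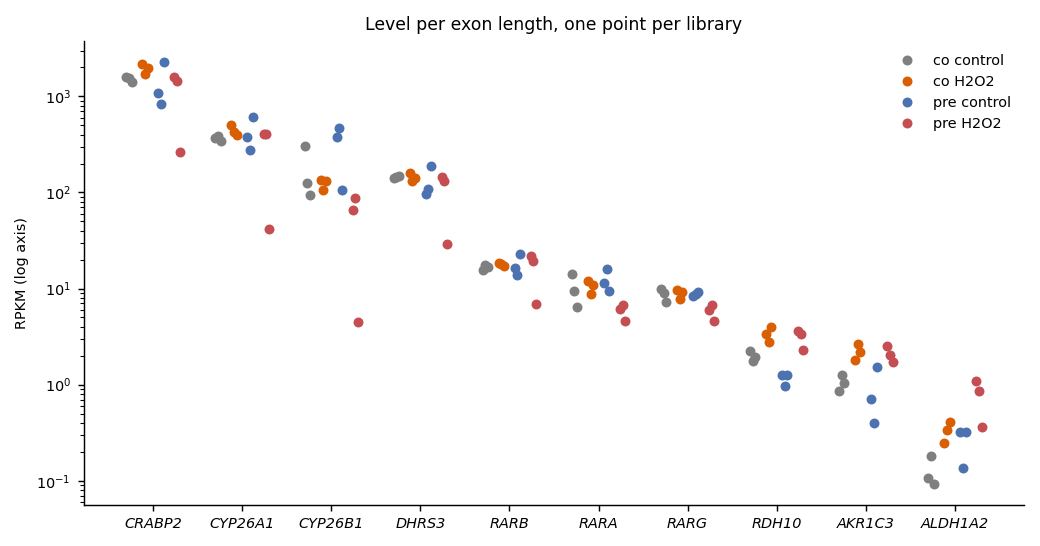
RPKM on a log axis for the 10 genes, with 1 point per library coloured by group. CRABP2, CYP26A1, CYP26B1 and DHRS3 lie far above the receptors, while RDH10, AKR1C3 and ALDH1A2 lie below them, and the isolated low points of CRABP2, CYP26A1, CYP26B1 and DHRS3 belong to pre H2O2 replicate 3.

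Pre H2O2 replicate 3 stood apart from replicates 1 and 2 in the retinoic acid-induced members. CYP26A1 was at 1210 and 1200 CPM in replicates 1 and 2 and at 123 CPM in replicate 3, a 9.79-fold difference from the mean of the others. CYP26B1 was at 318 and 429 CPM against 21.6 CPM, a 16.9-fold difference. CRABP2 was at 1706 and 1557 CPM against 286 CPM (5.70-fold). The same library was the lowest of all 12 for these 3 genes and for DHRS3 and RARB. It was also the lowest of all 12 for RARA (21.9 CPM) and RARG (23.3 CPM), by smaller margins. DHRS3, a retinaldehyde reductase, was at 509 and 463 CPM against 102 CPM (4.76-fold), and RARB at 206 and 183 CPM against 64.8 CPM (2.99-fold). ALDH1A2 was at 8.92 and 7.03 CPM against 2.97 CPM (2.44-fold).

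Of 15786 genes with a mean of at least 1 CPM, 235 (1.49%) were more than 1 log2 unit below the mean of the other replicates in this library, and 6 of the 10 members were among them. Ranked from the lowest log2 ratio, CYP26B1 was at position 2, CYP26A1 at 5, CRABP2 at 12, DHRS3 at 16, RARB at 68 and ALDH1A2 at 121. RARA, RARG, RDH10 and AKR1C3 were lower by 0.39 to 0.58 on the log2 scale and were not among the 235. In no other library were more than 2 members below that limit. The median log2 ratio of all 15786 genes in this library was -0.02. Pre H2O2 replicate 3 had 78304452 reads on genes, 13.3% in small RNA loci and 0.462 reads outside genes per read on a gene, against 15.1% and 15.0% in small RNA loci and 0.343 and 0.400 reads outside genes in replicates 1 and 2. The part of these properties in the low values was not tested. Among the 16 textbook target genes above 1 CPM that are no members, TGM2 (-1.77), RET (-1.16) and ICAM1 (-1.08) were also more than 1 log2 unit lower there.

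**Figure D2:**
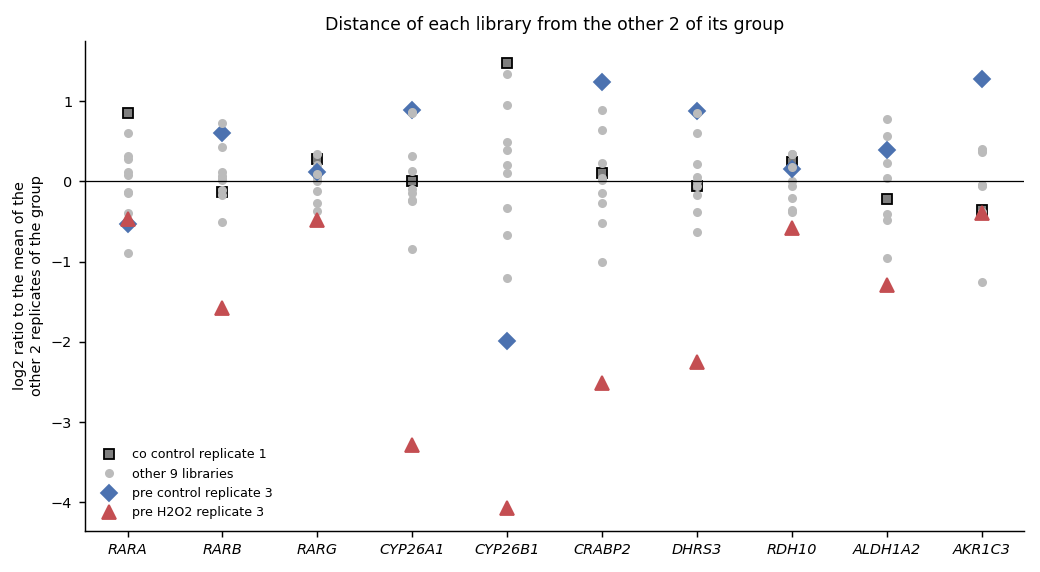
Log2 ratio of each library to the mean of the other 2 replicates of its group, for each of the 10 genes, with 3 libraries marked by shape. Pre H2O2 replicate 3 (triangles) lies at -4.08 for CYP26B1, -3.29 for CYP26A1, -2.51 for CRABP2, -2.25 for DHRS3 and -1.58 for RARB, while it lies near the other libraries for RARA, RARG, RDH10 and AKR1C3.

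The effect of H2O2 was tested with edgeR's quasi-likelihood test over all genes, with p-values adjusted by the Benjamini-Hochberg method and called below 0.05. In the co-treatment comparison, 1 of the 10 genes was called, AKR1C3, which was higher, where 0.598% of all 22089 genes tested were called and 0.335% were called higher. In the pre-treatment comparison over all 6 libraries, 0 of the 10 were called by edgeR (0.0242% of 24743 genes), and 6 had an unadjusted p below 0.05, among 2776 such genes in all. DESeq2 called RARA, RDH10 and ALDH1A2 there, among 705 of 24743 genes (241 higher and 464 lower). Over the 5 libraries, 6 of the 10 were called, 3 higher (RDH10, ALDH1A2 and AKR1C3) and 3 lower (RARA, RARG and CYP26B1), where 26.1% of all 26350 genes were called, 13.2% higher and 12.8% lower. With library size in place of TMM these calls were 1384 higher and 4892 lower, since the median of all genes moved from 0.01 to -0.21, and the 10 members kept their direction there except RARB, CRABP2 and DHRS3. The treated and control values did not overlap for 5 members in co-treatment, all higher (6.66% of all genes were higher and 7.31% lower without overlap). For pre-treatment over 6 libraries they did not overlap for 3 higher members and 3 lower ones, against 8.45% and 7.93% of all genes, and the same members did not overlap over 5 libraries, against 27.9% and 29.9%. The median log2 fold change of the members was 0.19 in co-treatment, -0.37 in pre-treatment over 6 libraries and 0.06 over 5, against 0.00, -0.01 and 0.01 for all genes tested.

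**Figure D3:**
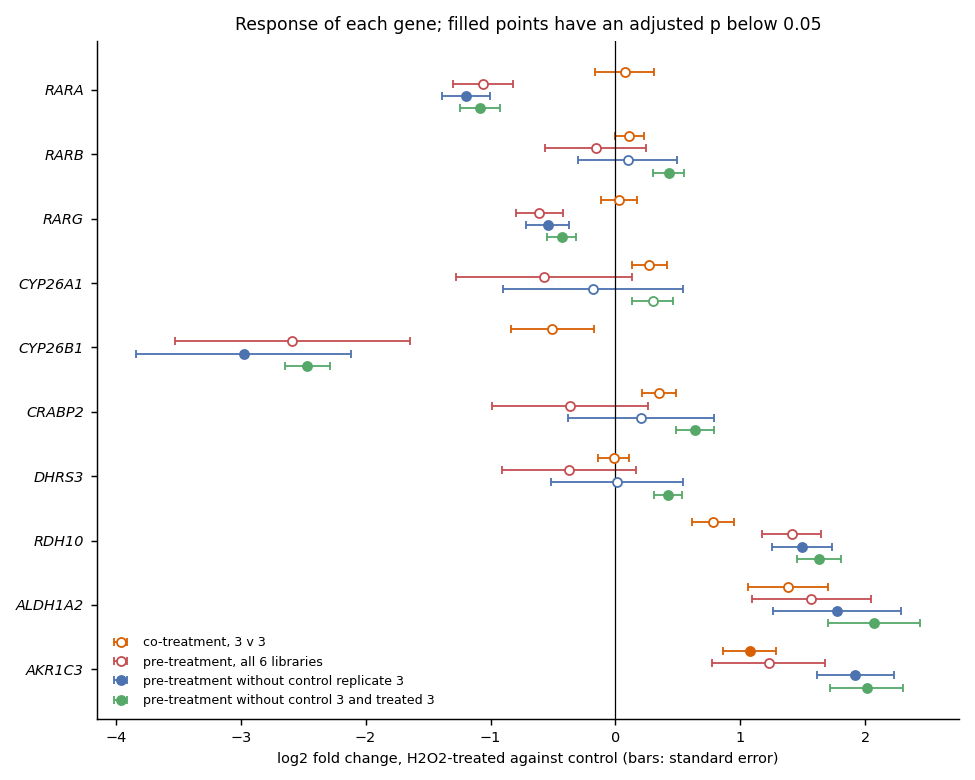
Log2 fold change of H2O2-treated against control cultures, with standard error bars, for co-treatment (3 against 3) and for pre-treatment with all 6 libraries, without control replicate 3, and without control replicate 3 and treated replicate 3. Filled points have an adjusted p below 0.05, and the pre-treatment values of RARB, CYP26A1, CRABP2 and DHRS3 change sign with the libraries used while those of the other 6 genes do not.

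Of the receptors, RARA and RARG were lower in every pre H2O2 culture than in every pre control, and passed the test over 5 libraries. RARA (chr17:38465432-38513895 of hg19, plus strand) encodes retinoic acid receptor alpha, the receptor with the broadest expression. Its levels were 67.9, 44.8 and 30.2 CPM in co control and 57.2, 41.4 and 52.2 CPM in co H2O2 replicates 1 to 3, which overlap, and the log2 fold change was 0.07 ± 0.24 (SE, adjusted p = 0.975). In the pre-treatment experiment they were 54.1, 75.2 and 44.5 CPM in the controls and 29.3, 31.96 and 21.9 CPM in the treated cultures, so that every treated culture was below every control. The log2 fold change was -1.06 ± 0.24 over 6 libraries (adjusted p = 0.320) and fell by 1.19 ± 0.19 over 5 (adjusted p = 0.00469). That call was kept when any 1 of the 5 libraries was left out (adjusted p from 0.00360 to 0.0488). The 4 libraries with the highest RARA values, pre control replicates 1 and 2, co control replicate 1 and co H2O2 replicate 1, were those with the lowest small RNA shares (1.59%, 2.88%, 5.31% and 5.04%), and the part of this in the RARA result was not tested. Pre control replicate 3 had 17.6% small RNA and 44.5 CPM of RARA.

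RARG (chr12:53604351-53626764, minus strand), the gamma receptor, was at 50.7, 45.7 and 37.4 CPM in co control and 50.1, 40.0 and 46.7 CPM in co H2O2. It was at 42.5, 45.2 and 47.6 CPM in pre control and 30.8, 34.5 and 23.3 CPM in pre H2O2. The co groups overlapped (log2 fold change 0.03 ± 0.14, adjusted p = 0.985), and every pre H2O2 culture was below every pre control. The log2 fold change was -0.61 ± 0.19 (adjusted p = 0.320) over 6 libraries and -0.54 ± 0.17 (adjusted p = 0.0480) over 5. The latter call was lost when either control or treated replicate 1 or 2 was left out (adjusted p from 0.0511 to 0.212), and kept without treated replicate 3 (0.0255).

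RARB (chr3:24729378-25639423, plus strand), the receptor gene that retinoic acid itself induces and whose DR5 element is shown above, held within a narrow band in the co-treatment experiment. It was at 147, 165 and 158 CPM in co control and 175, 171 and 161 CPM in co H2O2 (log2 fold change 0.11 ± 0.12, adjusted p = 0.891). It was at 156, 132 and 219 CPM in pre control and 206, 183 and 64.8 CPM in pre H2O2, where replicate 3 was the highest control and the lowest treated culture. Its log2 fold change was -0.16 ± 0.40 (adjusted p = 0.892) over 6 libraries and 0.10 ± 0.40 (adjusted p = 0.876) over 5. Without pre control replicate 3 and pre H2O2 replicate 3, a choice made after seeing the data, it was 0.43 (adjusted p = 0.0343, edgeR, 2 cultures against 2). In that fit 8577 of 25881 genes were called, 4128 of them higher.

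CRABP2 (chr1:156669398-156675608, minus strand), which delivers retinoic acid to the receptors, was higher in every co H2O2 culture than in every co control, but the difference did not pass the test over all genes. Its levels were 1735, 1690 and 1544 CPM in co control and 2343, 1856 and 2127 CPM in co H2O2, a log2 fold change of 0.35 ± 0.14 (adjusted p = 0.505). They were 1181, 908 and 2478 CPM in pre control and 1706, 1557 and 286 CPM in pre H2O2. In that experiment the highest and the lowest value of all 12 libraries both came from replicate 3. For CRABP2 the log2 fold change was -0.36 ± 0.63 (adjusted p = 0.837) over 6 libraries, 0.21 ± 0.59 (adjusted p = 0.820) over 5, and 0.64 (adjusted p = 0.0184, edgeR) without both replicates 3. That last fit called 4128 of 25881 genes higher.

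RDH10, ALDH1A2 and AKR1C3 were higher with H2O2 in both experiments, in every treated culture against every control. RDH10 (chromosome 8, plus strand), the retinol dehydrogenase of the first oxidation step, was at 11.8, 9.50 and 10.3 CPM in co control and 18.1, 14.9 and 21.1 CPM in co H2O2. It was at 6.74, 5.14 and 6.66 CPM in pre control and 19.2, 17.9 and 12.2 CPM in pre H2O2. The treated cultures lay above the controls in both experiments, and in the pre-treatment experiment this included treated replicate 3. For RDH10 the log2 fold change was 0.78 ± 0.17 in co-treatment (adjusted p = 0.0693), 1.41 ± 0.24 in pre-treatment over 6 libraries (adjusted p = 0.224) and rose by 1.49 ± 0.24 over 5 (adjusted p = 0.00478), a 2.82-fold increase. That call was kept without any 1 of the 5 libraries (adjusted p from 0.00123 to 0.0498). The co-treatment difference passed the threshold by edgeR's exact test (adjusted p = 0.00626) and DESeq2 (0.00279), with adjusted p from 0.00130 to 0.426 over all 8 other settings of the test, scaling, filter or model. Exons of RDH10 overlap RDH10-AS1 by 278 bases on the opposite strand.

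ALDH1A2 (chr15:58245622-58790065, minus strand), the dehydrogenase that completes the synthesis, was the rarest member, with 26 to 854 reads per library. It was at 0.877, 1.45 and 0.758 CPM in co control and 2.02, 2.74 and 3.29 CPM in co H2O2. It was at 2.63, 1.11 and 2.62 CPM in pre control and 8.92, 7.03 and 2.97 CPM in pre H2O2. Treated and control cultures did not overlap in either experiment, although pre H2O2 replicate 3 was close to its controls. For ALDH1A2 the log2 fold change was 1.38 ± 0.32 in co-treatment (adjusted p = 0.1001), 1.57 ± 0.48 in pre-treatment over 6 libraries (adjusted p = 0.320) and 1.77 ± 0.51 over 5 (adjusted p = 0.0361). The co-treatment difference passed the threshold by the exact test (adjusted p = 0.0104) and DESeq2 (0.00520), with a range of 0.00404 to 0.634 over the 8 settings. The call over 5 libraries was lost without pre control replicate 2 (adjusted p = 0.206), pre H2O2 replicate 1 (0.0950) or pre H2O2 replicate 2 (0.0811), and with library size in place of TMM (0.0579). Exons of ALDH1A2 overlap those of AQP9 by 354 bases and ALDH1A2-AS1 by 209 bases on the opposite strand, and without the strand setting of the counting reads there cannot be told apart.

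AKR1C3 (chr10:5077546-5149878, plus strand) encodes an aldo-keto reductase that can reduce retinaldehyde, is active on steroids and prostaglandins, and belongs to a gene family that responds to oxidative stress. It was at 3.39, 4.94 and 4.02 CPM in co control and 7.11, 10.3 and 8.47 CPM in co H2O2, which do not overlap. Its 2.11-fold rise was the only call among the members in co-treatment (log2 fold change 1.08 ± 0.21, adjusted p = 0.0448). The call was lost when any 1 of the 6 libraries was left out (adjusted p from 0.0508 to 0.239), with library size in place of TMM (0.0592) and in a fit over all groups (0.710). It was at 2.80, 1.57 and 6.03 CPM in pre control and 9.86, 7.93 and 6.65 CPM in pre H2O2, again without overlap. Over 6 libraries the log2 fold change was 1.23 ± 0.45 (adjusted p = 0.373), and over 5 it rose by 1.92 ± 0.31 (adjusted p = 0.00452), which held without any 1 of those libraries (adjusted p from 0.00338 to 0.0350). AKR1C1 and AKR1C2, relatives of similar sequence that may share some reads with AKR1C3, were at 3.19 to 7.93 CPM and 0.355 to 1.33 CPM. Over the 5 pre-treatment libraries AKR1C1 rose by 1.07 (adjusted p = 0.00833) and AKR1C2 by 1.35 (adjusted p = 0.0324), while neither was called in co-treatment (log2 fold change 0.56 and 0.29).

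VIM, a mesenchymal marker, was also higher with H2O2 in both experiments, at 5.78 to 9.85 CPM in co control, 15.3 to 17.8 CPM in co H2O2, 3.00 to 5.06 CPM in pre control and 19.6 to 23.0 CPM in pre H2O2. The summed level of the 7 mesenchymal markers was 263 to 385 CPM in co control and 314 to 334 CPM in co H2O2, and 321 to 419 CPM in pre control and 326 to 337 CPM in pre H2O2. VIM passed the test in co-treatment (log2 fold change 1.16, adjusted p = 0.0272) and in pre-treatment over 6 libraries (2.42, adjusted p = 0.0442). It was the 1 called of the 6 mesenchymal markers tested in each. Of those 6, 5 had a positive log2 fold change in co-treatment and 3 in pre-treatment over 6 libraries. In co-treatment TWIST1 was lower, at 118 to 136 CPM against 172 to 185 CPM in co control (log2 fold change -0.48, adjusted p = 0.124). Over 5 libraries, where RDH10, ALDH1A2 and AKR1C3 were called, 3 of the 6 mesenchymal markers rose, VIM by 2.66, YAP1 by 3.11 and CD44 by 1.11 on the log2 scale, the latter to no more than 3.00 CPM. YAP1 had 3 to 4 reads in the pre controls. FN1 (-0.53) and TWIST1 (-0.01) were lower and SNAI2 (0.27) was higher, none of them called. Of 6 noradrenergic markers tested there, DBH, GATA3 and PHOX2A fell, by 1.72, 1.44 and 0.73, and ISL1 rose by 0.37. Of 5 neuronal markers MAPT fell, by 0.94, and of 4 markers of Schwann or glial cells 0 were called by edgeR. The summed noradrenergic level was 1339 to 2171 CPM in pre control and 978 to 1341 CPM in pre H2O2, and the neuronal one 1273 to 1601 CPM and 1099.6 to 1297 CPM. The part of these cell types in the levels of RDH10, ALDH1A2 and AKR1C3 was not tested, and in bulk RNA more cells of a type and more RNA per cell cannot be told apart.

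DHRS3 (chr1:12627939-12678216, minus strand), which turns retinaldehyde back to retinol, showed no difference that passed the test in co-treatment. It was at 498, 511 and 524 CPM in co control and 557, 468 and 492 CPM in co H2O2 (log2 fold change -0.01 ± 0.12, adjusted p = 0.992). It was at 339, 385 and 663 CPM in pre control and 509, 463 and 102 CPM in pre H2O2. For DHRS3 the log2 fold change was -0.37 ± 0.54 (adjusted p = 0.808) over 6 libraries, 0.01 ± 0.53 (adjusted p = 0.989) over 5 and 0.42 (adjusted p = 0.0274, edgeR) without both replicates 3. That last fit called 4128 of 25881 genes higher. Treated and control cultures overlapped in both experiments.

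The hydroxylases CYP26A1 and CYP26B1 degrade retinoic acid. CYP26A1 (chr10:94833232-94837642, plus strand), whose DR5 element is shown above, was at 1091, 1151 and 1018 CPM in co control and 1507, 1255 and 1167 CPM in co H2O2. The co groups did not overlap, but the log2 fold change of 0.27 ± 0.14 was not called (adjusted p = 0.686). It was at 1128, 823 and 1818 CPM in pre control and 1210, 1200 and 123 CPM in pre H2O2. For CYP26A1 the log2 fold change was -0.57 ± 0.71 (adjusted p = 0.775) over 6 libraries, -0.18 ± 0.72 (adjusted p = 0.875) over 5 and 0.30 (adjusted p = 0.190, edgeR) without both replicates 3.

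CYP26B1 (chr2:72356367-72374991, minus strand) had the largest log2 fold change of the 10 genes in pre-treatment, and its controls spread widely. It was at 1484, 611 and 455 CPM in co control and 657, 510 and 630 CPM in co H2O2, where 1 control lay far above the rest (log2 fold change -0.51 ± 0.33, adjusted p = 0.791). Without co control replicate 1 the log2 fold change was 0.17. It was at 1831, 2278 and 517 CPM in pre control and 318, 429 and 21.6 CPM in pre H2O2, so all treated cultures were below all controls. For CYP26B1 the log2 fold change was -2.59 ± 0.94 (adjusted p = 0.365) over 6 libraries, -2.98 ± 0.86 (adjusted p = 0.0362) over 5 and -2.47 (adjusted p = 0.000537, edgeR) without both replicates 3. That last fit called 4449 of 25881 genes lower. The call over 5 libraries was lost without pre control replicate 1 (adjusted p = 0.0843), pre control replicate 2 (0.142) or pre H2O2 replicate 1 (0.0742), and by DESeq2 (0.0556). The 3 highest libraries, pre control replicates 1 and 2 and co control replicate 1, had small RNA shares of 1.59%, 2.88% and 5.31%, and the part of this in the CYP26B1 result was not tested. Pre control replicate 3, at 517 CPM, had a small RNA share of 17.6%.

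**Figure D4:**
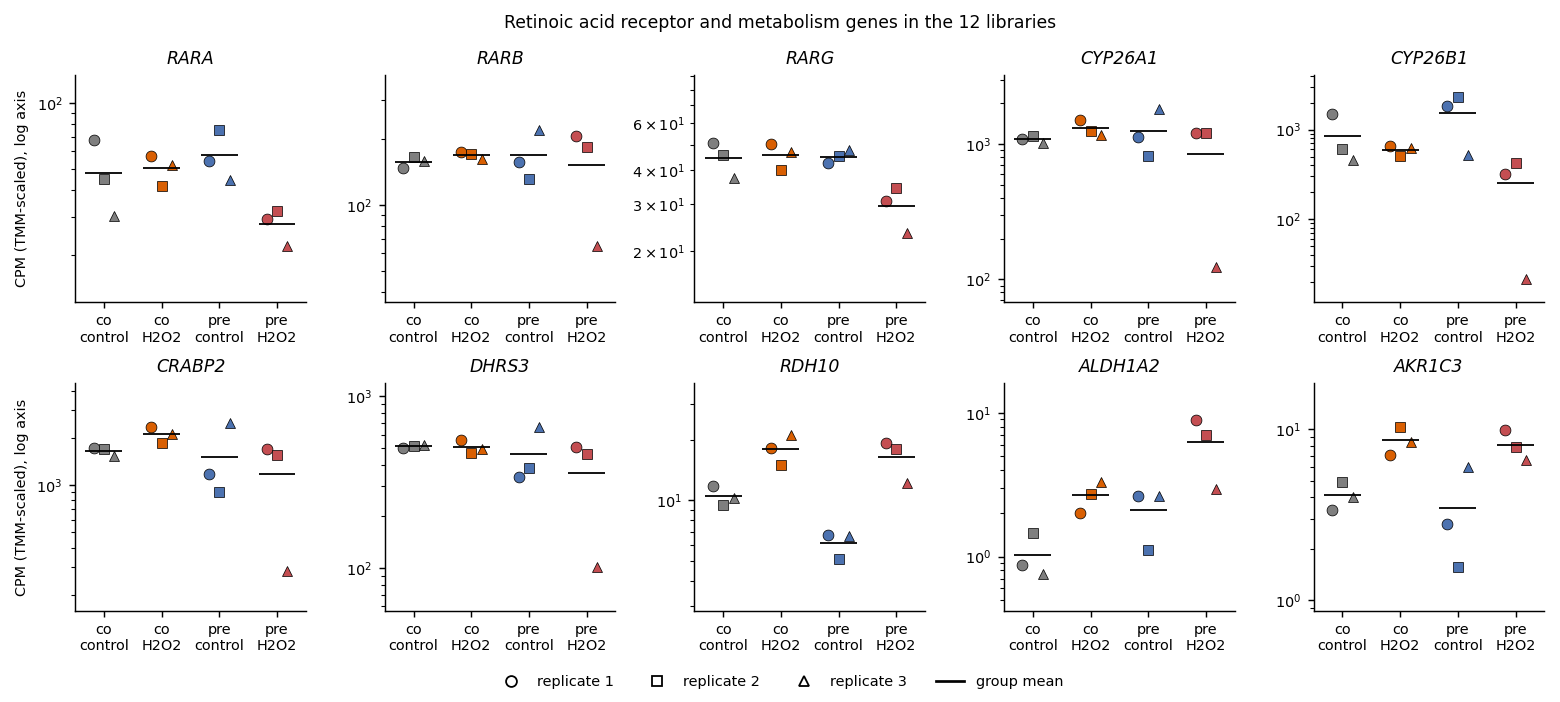
CPM of each of the 10 genes in each library on log axes that differ between panels, with replicate numbers as symbols and group means as lines. RDH10, ALDH1A2 and AKR1C3 are higher in H2O2-treated cultures in both experiments, and RARA, RARG and CYP26B1 are lower in all 3 pre H2O2 cultures than in the pre controls.

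Whether H2O2 acted differently on the members in the 2 experiments was tested with an interaction term. Over all 12 libraries, 0 of the 10 genes differed by edgeR (0.0287% of 24407 genes did, 0.0246% in the higher and 0.0041% in the lower direction), and DESeq2 called 0 as well. RARA and RARG were the 2 with an unadjusted p below 0.05 (2183 genes in all), with an adjusted p of 0.511. Without a filter on low counts 272 of 42536 genes were called, among them RARA and CYP26B1 (adjusted p = 0.0348 and 0.0396). Over 11 libraries, without pre control replicate 3, RARA differed (8.02% of 25668 genes did, 3.32% higher and 4.7% lower), with a response lower by 1.32 ± 0.36 on the log2 scale in pre-treatment (adjusted p = 0.0390). This call was lost in 9 of the 11 fits that left out a further library (adjusted p from 0.00277 to 0.185 over all 11). CYP26B1 had the largest difference of the members, -2.53 ± 0.98 (adjusted p = 0.114), and was called without co control replicate 1 (0.0413), without pre H2O2 replicate 3 (0.0293) or without a filter. Those fits called 4499, 2527 and 3847 genes. For RDH10, ALDH1A2 and AKR1C3 the difference was 0.66 ± 0.29, 0.34 ± 0.61 and 0.79 ± 0.37 (adjusted p = 0.159, 0.757 and 0.177).

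The rest of the pathway was described with 3 lists of other genes. Of 18 other receptors and cofactors, 16 were tested in co-treatment and 0 were called (edgeR; median log2 fold change -0.06). Of 46 other carriers, enzymes and transporters, 27 were tested and 0 were called (median 0.07). Of 30 textbook retinoic acid target genes, 20 were tested and 2 fell, with a median of -0.26 against 0.00 for all genes. These were NR2F1, an orphan receptor that retinoic acid induces, from 29.0, 23.2 and 21.9 CPM to 13.3, 10.3 and 12.5 CPM (log2 fold change -1.04 ± 0.16, adjusted p = 0.0119), and MEIS1, a homeobox cofactor of HOX proteins, from 137, 154 and 153 CPM to 96.5, 98.8 and 83.5 CPM (-0.67 ± 0.12, adjusted p = 0.0307). Among the targets not tested were HOXA5, HOXB1, HOXB5 and STRA8, none of which was above 0.175 CPM in any library.

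In pre-treatment over all 6 libraries, 0 of the 17 cofactors, 30 carriers and enzymes and 21 targets tested were called by edgeR. Over 5 libraries, 2 of 17 cofactors rose and 9 fell, 5 of 32 carriers and enzymes rose and 3 fell, and 1 of 21 targets rose and 8 fell, beside the 13.2% and 12.8% of all genes given above. Among the cofactors that fell were EP300 and CREBBP, histone acetyltransferases. EP300 was at 111 and 136 CPM in pre control replicates 1 and 2, 23.0 CPM in pre control replicate 3 and 22.7, 28.0 and 33.1 CPM in pre H2O2, so the difference was present against 2 of the 3 controls and absent against the other. CREBBP was at 178, 233 and 41.8 CPM in pre control against 34.5, 45.5 and 56.5 CPM in pre H2O2. For both, pre control replicate 3 lay within the treated range. The fatty acid receptor PPARD fell by 1.52 on the log2 scale (adjusted p = 0.00167), and ZNF703, at no more than 1.39 CPM, fell by 3.47 (adjusted p = 0.00411). These controls are the ones with 0.800 and 0.830 reads outside genes per read on a gene, and the part of this was not tested. ADH5, RDH11 and PRAME rose over 5 libraries by 0.64, 0.63 and 0.49 on the log2 scale, and pre control replicate 3 was above all treated cultures for each (252, 105 and 583 CPM). NR2C1, an orphan receptor, rose by 0.47 (adjusted p = 0.0381), with treated cultures at 43.8 to 49.6 CPM above all controls (31.2 to 38.5 CPM). NR2F1 was again lower, by 1.27 ± 0.26 on the log2 scale over 5 libraries (adjusted p = 0.0103), with every treated culture (12.6 to 17.2 CPM) below every control (22.7 to 49.5 CPM). PDK1, which the study named, was lower in every H2O2 culture than in every control of its experiment. By edgeR its log2 fold change was -0.73 in co-treatment (adjusted p = 0.0676). It was -0.92 over 6 pre-treatment libraries (adjusted p = 0.338) and -1.07 over 5 (adjusted p = 0.0251).

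The partners nearest to the members differed widely in level. RXRA, the heterodimer partner, was at 15.6 to 34.5 CPM, RXRB at 0.313 to 1.54 CPM and RXRG at no more than 0.0126 CPM. CRABP1, the second binding protein, was at 6.65 to 13.3 CPM, below CRABP2 in every library. Of the other retinaldehyde dehydrogenases, ALDH1A3 was at 2.44 to 5.34 CPM and ALDH1A1 had reads in 1 library (0.0296 CPM). RXRA, RXRB, CRABP1 and ALDH1A3 were not called in any comparison.

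**Figure D5:**
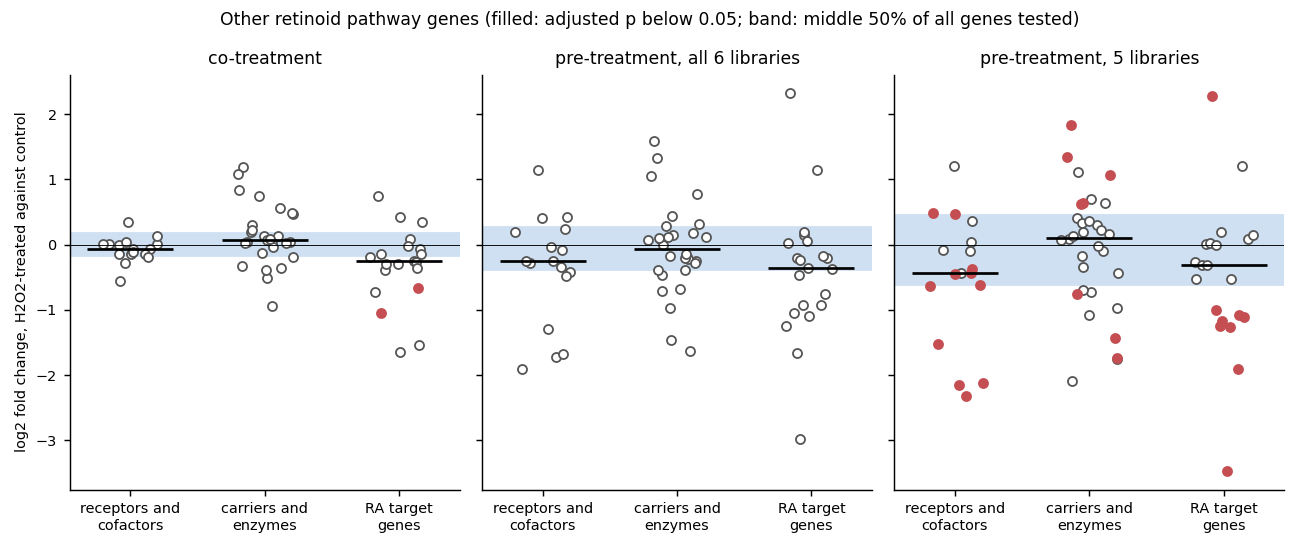
Log2 fold change of H2O2-treated against control cultures for the tested genes of 3 lists of retinoid pathway genes, in co-treatment and in pre-treatment over 6 and 5 libraries, with medians as lines, calls filled and the middle 50% of all genes as a band. In co-treatment the calls are NR2F1 and MEIS1, over 6 pre-treatment libraries there is none, and over 5 libraries the calls lie on both sides of 0.

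The members fell into sets by their pattern over the libraries. Pearson correlations of log2 CPM are given as a description over 12 libraries, which include the replicates of each group and so are not independent. RARB, CYP26A1, CRABP2 and DHRS3 were alike (r from 0.929 to 0.968), and CYP26A1 was second in likeness to RARB, and DHRS3 second to CYP26A1, among all genes above 1 CPM. C4orf6 was the gene most like both RARB (0.973) and CYP26A1 (0.969). Without pre H2O2 replicate 3 the correlations within this set were 0.647 to 0.848. CYP26B1 was most like RET, the receptor tyrosine kinase gene (0.977, and 0.960 without that library), LAMB2 (0.956) and DUSP16 (0.953). Its correlation with RARB, CYP26A1, CRABP2 and DHRS3 changed sign when pre H2O2 replicate 3 was left out, from 0.586, 0.746, 0.596 and 0.681 to -0.768, -0.502, -0.627 and -0.654. The genes most like the others were FAM222A for RARA (0.982), ETV4 for RARG (0.973), ACO1 for CRABP2 (0.988), RP11-474O21.5 for DHRS3 (0.977), CCL2 for RDH10 (0.972), ZNF44 for ALDH1A2 (0.939) and RRM2B for AKR1C3 (0.969).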

How the data were processed

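Stranded libraries were prepared from total RNA of 12 cultures after ribosomal RNA depletion. The authors trimmed reads with Cutadapt 2.10, mapped them to hg19 with HISAT2 2.1.0 and counted them with htseq-count (HTSeq 0.7.2), with FastQC 0.11.8 for quality control. The deposited files hold unnormalized counts per gene symbol. The annotation version and the strand setting of the counting are not given in the sources used here, and the latter affects RARA, RDH10 and ALDH1A2, whose exons overlap genes on the opposite strand. The closing entries of each file that name no gene (40.0 to 59.9% of the summed counts of a file) were left out. Tables with fold changes and p-values of the authors' own comparisons were not used.

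The tests used edgeR 4.0.16 (TMM, quasi-likelihood test) in R 4.3.3. The filter on low counts asked for the CPM that equals 5 counts in the smallest library, reached in a number of libraries no lower than the size of the smaller group, and genes were called at an adjusted p (FDR) below 0.05. DESeq2 1.42.0, the exact test, other scalings and filters, a replicate block and left-out libraries were the alternatives. Ratios between replicates had 0.5 CPM added. RPKM used the exon length of GENCODE genes lifted to hg19. The fits were tested on simulated data. Replicates differed by more than counting error (chi-square per degree of freedom from 27.6 to 613 between pairs). Promoter sequences come from RefSeq on GRCh38.p14. The members and lists were chosen with earlier results of these data known. The text names the 10 members, called genes of the 3 lists (all if 12 or fewer, otherwise the 6 with the lowest adjusted p in each direction), the nearest partners, AKR1C1 and AKR1C2, and, of the 3 genes most like each member by correlation, the first or more; some genes of the lists are counted but not reported here by name. Other names were chosen after their values were seen.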

Additional observations from a re-analysis of the deposited data

Results flagged for a closer look

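The responses to H2O2 differed between the experiments for RARA and for genes of the 3 pathway lists by the interaction test over 11 libraries (edgeR, adjusted p below 0.05), given here as the pre-treatment minus the co-treatment log2 fold change. RARA differed by -1.32, EP300 by -2.18, CREBBP by -2.05, NCOR1 by -0.60, NR2C2 by -0.70, PPARD by -1.43, ZNF703 by -3.48 and ADH1C by -5.17. MEIS1 differed by 0.76, since it was lower in co H2O2 (83.5 to 98.8 CPM) than in co control (137 to 154 CPM) but not in pre H2O2 (141 to 186 CPM, controls 133 to 175 CPM). None of these genes was called over all 12 libraries (edgeR, where 2183 of all genes had an unadjusted p below 0.05 and DESeq2 called 106). The 11 libraries leave out pre control replicate 3, which lay within the pre H2O2 range for EP300 and CREBBP. NCOR1 was at 143 CPM in that control, below pre H2O2 (147 to 165 CPM), and at 245 and 249 CPM in pre control replicates 1 and 2. NR2C2 was at 43.7 CPM there, beside 40.9 to 43.4 CPM in pre H2O2, and at 63.7 and 68.9 CPM in pre control replicates 1 and 2. RARA and PPARD were higher in that control than in every pre H2O2 culture. ZNF703 was at no more than 1.39 CPM and ADH1C at no more than 0.272 CPM in any library.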

How the results depend on the processing

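In co-treatment (132 calls) there were 333 by the exact test, 342 by DESeq2, 80 with library size only, 535 without a filter and 3 in a fit over all groups, and 18 to 223 with 1 library left out. In pre-treatment over 6 libraries (6 calls) there were 271, 705, 1, 319 and 68 under the same settings, 0 to 6871 with 1 library left out (6871 without pre control replicate 3, 0 by edgeR without any other, with 1316 to 2120 genes at an unadjusted p below 0.05) and 8577 without both replicates 3. Over 5 libraries (6871 calls) there were 2952 with a log2 fold change limit of 1 and 1677 to 8577 with 1 library left out. The difference over 12 libraries (7 calls) gave 106 by DESeq2, 4 with library size only, 272 without a filter, 0 to 2058 with 1 left out (2058 without pre control replicate 3, otherwise at most 5) and 2527 without both replicates 3. Over 11 libraries (2058 calls) it gave 3483 by DESeq2, 3847 without a filter and 321 to 4499 with 1 left out.

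With library size only, the share of calls that were higher moved from 50.8% to 22.1% over 5 pre-treatment libraries, from 56.1% to 71.3% in co-treatment and, with the median of all genes at -0.23 in place of -0.02, from 41.4% to 15.6% in the difference over 11 libraries.

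Nothing states whether replicate numbers pair the cultures. The deviations from group means of control and treated libraries of 1 number had correlations of 0.049, -0.021 and -0.15 in co-treatment. In pre-treatment they were -0.27, 0.074 and -0.29. With 3 libraries per group these correlations cannot settle the pairing. With a replicate block there were 181 calls in co-treatment, 0 in pre-treatment over 6 libraries by edgeR (1957 at an unadjusted p below 0.05), 10755 over 5, 0 in the difference over 12 (1603) and 2684 over 11. Over 5 libraries the block leaves treated replicate 3 without a partner, so that it adds nothing, and CYP26A1 was at 0.35 (adjusted p = 0.0211), RARB at 0.46, CRABP2 at 0.68 and DHRS3 at 0.45. In the difference over 11 libraries the block gave DHRS3 0.42, RARB 0.30, CYP26A1 0.033 and CRABP2 0.28, and called CYP26B1 (-2.18, adjusted p = 0.00325) and RDH10 (0.85, adjusted p = 0.0394). In co-treatment it called RDH10 (adjusted p = 0.0454).

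Of 390 values of single members under alternatives other than left-out libraries, 346 kept their direction and side of the threshold, 5 lost and 23 gained a call, and 16 changed sign; of 420 with 1 library or both replicates 3 left out these were 323, 25, 21 and 51. DHRS3 was at 0.037 in co-treatment with library size only, and over 5 libraries at -0.0096 by DESeq2, -0.0095 with RLE factors, -0.010 with small RNA loci removed, -0.22 with library size only, -0.017 without a filter and -0.046 in a fit over all groups; in the difference over 11 libraries it was at 0.021 with small RNA loci removed and 0.0059 without a filter. With library size only RARB was at -0.13 and CRABP2 at -0.026 over 5 libraries. Without both replicates 3, pre-treatment RARB was at 0.43, CRABP2 at 0.64, DHRS3 at 0.42 and CYP26A1 at 0.30, and the difference at 0.30, 0.27, 0.41 and 0.0071.

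With 1 library left out, sign changes fell within these ranges: in co-treatment DHRS3 -0.093 to 0.037, CYP26B1 -0.81 to 0.17, RARA -0.17 to 0.42 and RARG -0.081 to 0.13; over 6 pre-treatment libraries RARB -0.44 to 0.20, CRABP2 -0.73 to 0.21 and DHRS3 -0.71 to 0.070; over 5, DHRS3 -0.34 to 0.42, RARB -0.20 to 0.43, CRABP2 -0.16 to 0.64 and CYP26A1 -0.54 to 0.30; in the difference over 12, ALDH1A2 -0.16 to 0.51, AKR1C3 -0.18 to 0.79, RARB -0.57 to 0.081 and DHRS3 -0.71 to 0.074; and over 11, DHRS3 -0.37 to 0.41, RARB -0.35 to 0.30, CYP26A1 -0.86 to 0.0071, CRABP2 -0.56 to 0.27 and ALDH1A2 -0.078 to 1.16. The cause of these changes was not tested. RARA, RDH10 and AKR1C3 kept their calls over 5 pre-treatment libraries in every alternative and without any 1 library. Where 1 library was left in an arm it was assumed to vary like the others. The exact test and the fit over all groups were not run for the differences. ALDH1A2, with as few as 26 reads, is the member whose depth limits it most.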

Other observations

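Other genes were also lower in pre H2O2 replicate 3 than in replicates 1 and 2, and they are named here after their values were seen. CALCA, which encodes calcitonin and the neuropeptide CGRP, was at 56.9 and 42.2 CPM in replicates 1 and 2 and at 3.27 CPM in replicate 3, and its relative CALCB was at 64.3 and 50.8 CPM against 7.87 CPM. The protocadherin gene PCDH7 was at 28.7 and 26.8 CPM against 2.58 CPM, and CCBE1 at 51.5 and 48.2 CPM against 5.54 CPM. SCG2, a neuroendocrine secretory granule protein, was at 1005 and 867 CPM against 299.9 CPM. NQO1, a quinone reductase of the oxidative stress response, was at 44.5 and 40.5 CPM against 12.9 CPM. On the log2 CPM scale, the lowest pre control was at 2.52 for CALCA and 2.43 for CALCB. It was at 4.23 for PCDH7, 5.92 for CCBE1, 8.93 for SCG2 and 4.10 for NQO1. CALCB in replicate 3 was therefore not below every pre control, while CALCA, PCDH7, CCBE1, SCG2 and NQO1 were.

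Genes with a DR5 match in the promoter window ranged widely in that library. Of 29 symbols with such a match, 16 were in the count data and 9 had a mean of at least 1 CPM. CYP26A1 and RARB were the 2 of these 9 more than 1 log2 unit below the other replicates, and the median over the 9 was -0.17. FSCN2 was just inside that limit at -0.93, with 1.83% of all genes lower, and at 0.354 CPM against 0.888 and 1.36 CPM. The other 6 were between -0.26 (CFLAR) and 0.46 (CYB5R2).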
